A study of Arabidopsis thaliana with 19 samples.

Results

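The genes described here lie on a segment of Arabidopsis chromosome 1, from AT1G21450 to AT1G24360 in the order of their AGI codes (the systematic gene numbers of Arabidopsis), and were followed in dormant seeds of the wild type and of 4 near-isogenic lines. The bounds of the segment were chosen by the expression values of 1 of these lines, NILDOG3, set against the wild type, and the rule left out 5 genes of the interval. The array table held 240 members of the segment out of 21313 measured genes, which is 1.13% of the table. All 240 codes were found among the locus tags of the RefSeq table for assembly TAIR10.1. That table listed 330 loci in the interval and gave 89 of the members a symbol other than the AGI code. Of the members, 237 were annotated as protein coding. The first member was the 1693rd of 5512 measured genes of chromosome 1. A member known only by its AGI code is given below by that code, without a function.

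Seeds were of the accession Landsberg erecta (Ler), with 5 arrays, and of the lines NILDOG1 (5 arrays), NILDOG2 (3), NILDOG3 (3) and NILDOG6 (3). The study describes each line as carrying introgressed DNA at a DELAY OF GERMINATION locus in an otherwise Ler background, which was not checked here. According to the methods of the study, the introgressed DNA came from the accession Cvi in NILDOG1, NILDOG2 and NILDOG3 and from Kas-2 in NILDOG6. Seeds were dormant and had been imbibed in water for 24 h in every group. Each genotype was represented by 1 line, and each replicate was a bulk of seeds from several plants grown in a randomized block design. The labels describe 3 replicates, whereas Ler and NILDOG1 have 5 arrays. The treatment label gives imbibed seeds and the extraction label dry seeds, and the sample titles give imbibed seeds.

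A near-isogenic line is made by repeated backcrossing until only a stretch of donor chromosome remains in the genome of the recurrent parent. Within such a stretch every gene carries the donor allele, including its regulatory sequence, whereas genes elsewhere carry the allele of the parent. DELAY OF GERMINATION loci are regions at which natural accessions differ in seed dormancy, a block to germination that is lost with dry storage or cold.

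Levels were log2 values of ATH1 arrays normalized by RMA, with 1 row per gene. A difference of 1 is therefore a change by a factor of 2.0 in probe signal. The probe sequences were not analysed here, so a change in transcript level and a sequence difference under a probe cannot be told apart. Seed storage and maturation genes were at 9.30 to 14.61 over all arrays, with 11 of 11 measured, and 3 of 3 flower genes were at 2.47 to 3.94. Arrays of 1 genotype correlated at 0.978 to 0.993. NILDOG6 replicate 1 stood apart from its group, at 0.97977 and 0.97821 with replicates 2 and 3 against 0.988 between those. A pair of arrays in another genotype was lower still, at 0.97773, so low agreement was not particular to this array. However, NILDOG6 replicate 1 correlated with the Ler arrays at a median of 0.98779, above its values with replicates 2 and 3. Counts and calls of NILDOG6 are given with and without its replicate 1. In whole seeds, fewer cells of a type and less RNA per cell cannot be told apart.

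Members were first described by their difference from Ler in NILDOG3, the contrast that set the bounds. Their median absolute log2 difference was 0.20, beside 0.15 over all genes, and the 90th percentile was 0.82 beside 0.48. An absolute difference over 1 was found for 20 members, 9 higher and 11 lower in NILDOG3. Over all genes, 384 passed the same size, 40 higher and 344 lower, so that 9 of the 40 genes with a higher level by that size were members. In limma's fit over all genes, 6 members were called at an adjusted p under 1e-04, 4 higher and 2 lower, where 0.0704% of all genes were called. With each array centred on its median these counts were 7 and 1. Centring also moved the median difference over all genes in NILDOG3 from 0.01 to 0.14. No share of all genes called was taken at this setting. The NILDOG3 values chose the segment and were not tested again.

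A stricter description did not use a model. A member was counted as outside when its NILDOG3 arrays lay all above or all below the other 16 arrays of the experiment. By this count 19 members were outside, 10 higher and 9 lower, or 7.92% of the members, where 0.981% of all genes were. Set against the 5 Ler arrays only, 46 members did not overlap, 21 higher and 25 lower, where 11% of all genes did not. Without Ler replicate 2 the latter count was 72, or 30% of the members, where 20.9% of all genes did not overlap. All these counts used the NILDOG3 values that set the bounds, and the first and last members were themselves outside. Their excess over all genes is therefore no separate result.

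**Figure D1:**
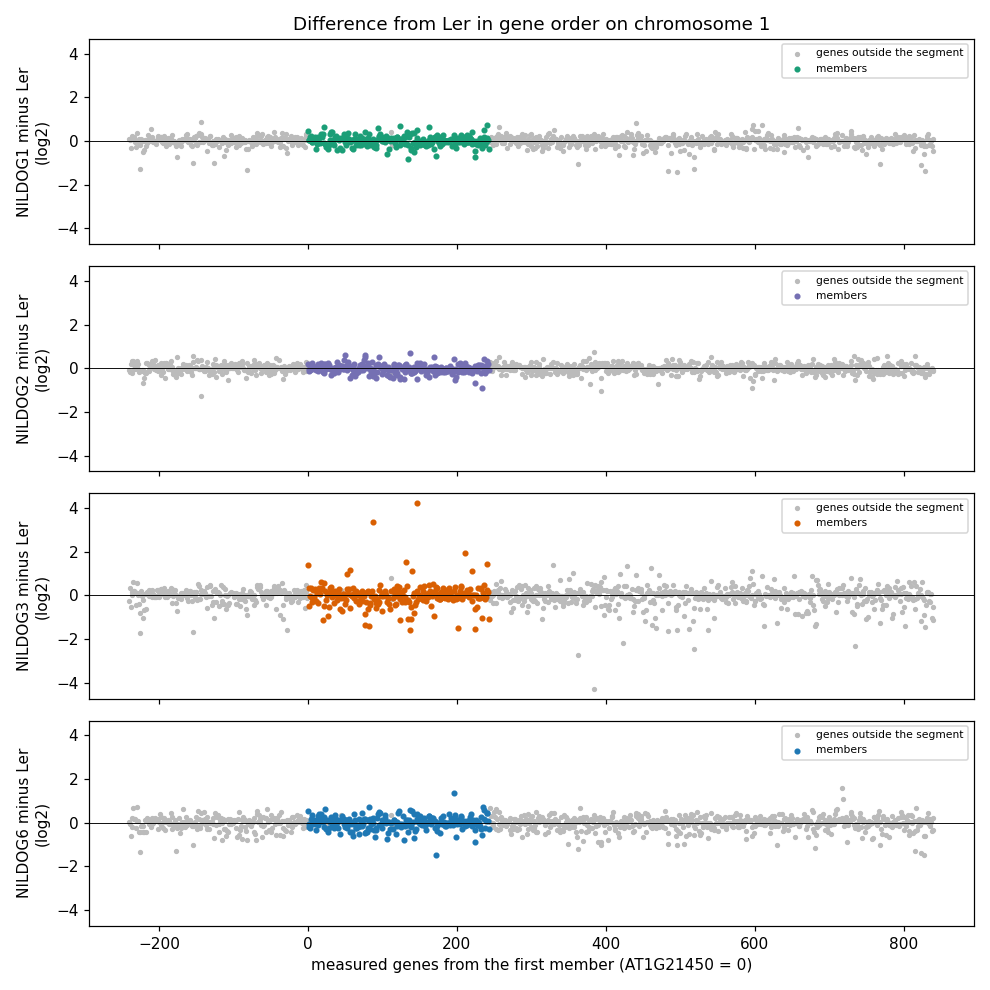
Difference of each line from Ler (log2, vertical axis) for every measured gene in gene order (horizontal axis, in measured genes from the first member), with members coloured and other genes grey. In NILDOG3, members reach 4.25 above and 1.60 below Ler, and genes after the segment are also spread, mainly downwards, whereas no member of NILDOG1 or NILDOG2 exceeds a difference of 1.

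The 4 members with the largest rise in NILDOG3 were AT1G23120, ATL15, AT1G23890 and AT1G22980. AT1G23120 was at 4.59, 5.70, 5.39, 4.94 and 5.45 in Ler and at 9.01, 9.85 and 9.53 in NILDOG3. Its highest value in the other lines was 6.24, in NILDOG1, so that a gap of 2.76 separated the NILDOG3 arrays from all others. The mean difference was 4.25 ± 0.28 (SE), a 19-fold higher level in NILDOG3, and no gene of the whole table rose more in this line.

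ATL15 (AT1G22500) encodes a RING-type protein of the ATL family of ubiquitin ligases, which mark proteins for degradation. Its levels were 4.68, 4.33, 3.95, 4.38 and 4.20 in Ler and 8.0, 7.16 and 7.92 in NILDOG3. The other lines stayed between 3.37 and 4.94, and the gap to the NILDOG3 arrays was 2.22. The difference of 3.38 ± 0.28 (SE) corresponds to a 10.4-fold higher level. In the other lines the differences of this gene from Ler were 0.08 (NILDOG1), -0.34 (NILDOG2) and 0.01 (NILDOG6, or 0.35 without its replicate 1).

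AT1G23890 was at 6.62, 6.33, 6.29, 6.70 and 6.45 in Ler and at 8.34, 8.42 and 8.46 in NILDOG3. Its NILDOG3 arrays differed among themselves by an SD of 0.06 and lay 1.26 above the nearest other array, with a difference from Ler of 1.93 ± 0.18 (SE). AT1G22980 was close to the bottom of the array scale in Ler, at 3.03, 2.79, 3.00, 3.14 and 2.92, and reached 4.02, 4.73 and 4.72 in NILDOG3. Its highest other array stood at 3.39, and the difference was 1.51 ± 0.18 (SE).

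EMB2421 (AT1G24340) and emb2204 (AT1G22090) are named after mutants with defective embryos. EMB2421 was at 6.61, 5.79, 6.09, 5.65 and 5.93 in Ler and at 7.34, 7.53 and 7.42 in NILDOG3, a difference of 1.42 ± 0.18 (SE). NILDOG1 was at 6.39 to 7.04, below NILDOG3 and overlapping Ler. emb2204 was at 3.35, 2.89, 3.17, 2.88 and 3.12 in Ler and at 4.19, 3.95 and 4.63 in NILDOG3, a difference of 1.17 ± 0.15 (SE). All 16 other arrays of emb2204 were at or under 3.35.

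SCL1 (AT1G21450), a member of the GRAS family of transcriptional regulators, is the first gene of the segment. Its levels were 5.81, 5.64, 4.90, 5.18 and 5.33 in Ler and 6.58, 6.94 and 6.73 in NILDOG3, which gave a difference of 1.38 ± 0.16 (SE). The measured gene before it, AT1G21440, differed by -0.10 ± 0.17 (SE). The last member, AT1G24360, was at 9.08, 8.66, 9.02, 9.15 and 9.02 in Ler and at 7.99, 7.60 and 8.19 in NILDOG3, a difference of -1.06 ± 0.18 (SE). The measured gene after it, AT1G24390, differed by -0.22 ± 0.25 (SE). These were the values just inside and just outside the bounds.

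The other named rises were AT1G24040 at 1.12 ± 0.24 (SE), AT1G22060 at 0.98 ± 0.26 (SE) and SECA2 at 0.64 ± 0.17 (SE). SECA2 (AT1G21650) encodes a SecA-type ATPase of protein translocation. Its NILDOG3 arrays, at 5.50, 5.29 and 5.80, were above those of Ler, but the lowest overlapped the other lines, which reached 5.46, and those of AT1G22060 cleared the nearest other array by only 0.0067.

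**Figure D2:**
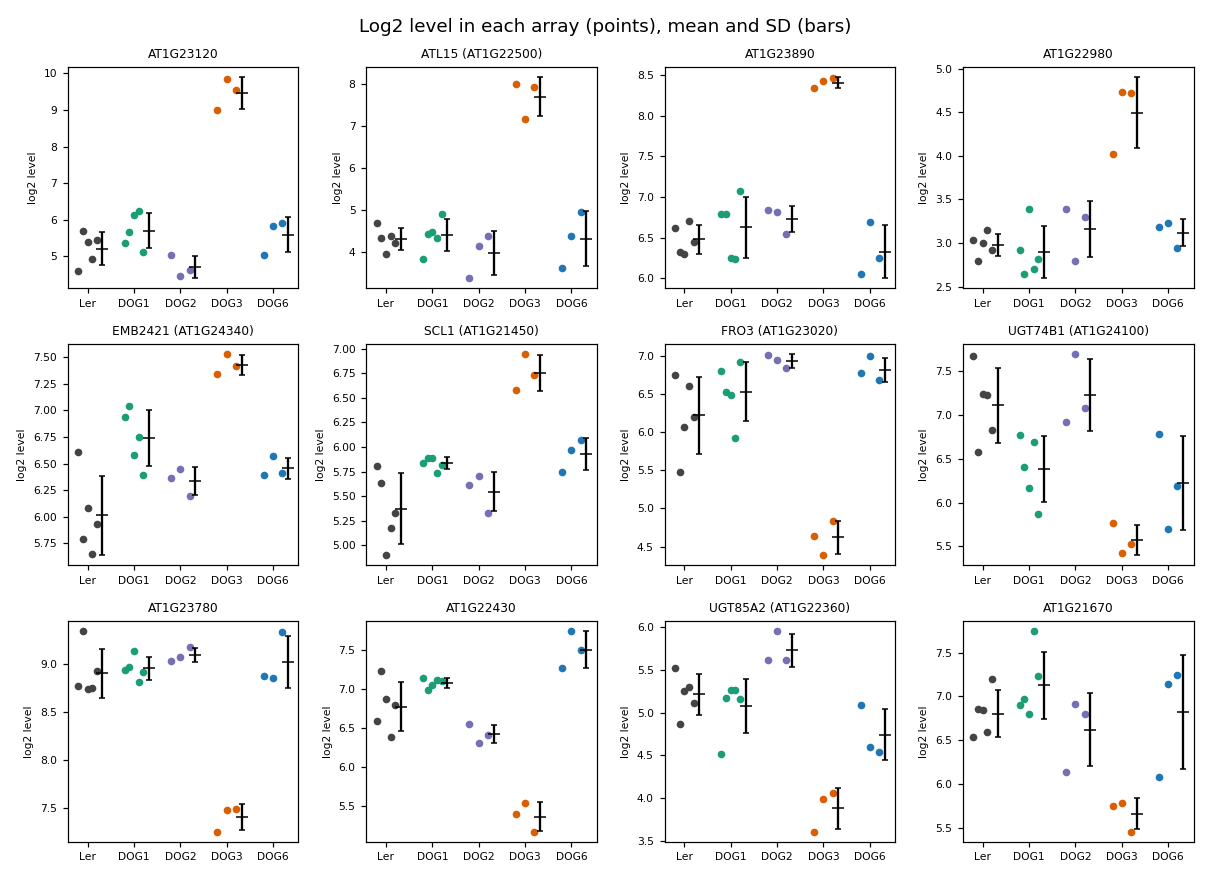
Log2 level of 12 members in each array (points), with the mean and SD of each genotype (bars), for Ler and the 4 lines written as DOG1, DOG2, DOG3 and DOG6. The NILDOG3 points lie apart from all other points in every panel except UGT74B1 (AT1G24100), where a NILDOG6 array at 5.70 falls within their range.

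The largest fall was that of FRO3 (AT1G23020), a ferric chelate reductase of iron metabolism. It was at 6.75, 5.47, 6.06, 6.60 and 6.2 in Ler and at 4.64, 4.39 and 4.83 in NILDOG3, a difference of -1.60 ± 0.23 (SE), or a 3.03-fold lower level. Every other array was above those of NILDOG3, and the other lines were at 5.92 to 7.01. The differences of FRO3 from Ler were 0.31 in NILDOG1, 0.71 in NILDOG2 and 0.60 in NILDOG6. The comparisons of the lines share the 5 Ler arrays, so their values are set side by side here and are not independent.

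FRO3 was directly followed in gene order by AT1G23030 and AT1G23040, which were also outside and lower in NILDOG3. AT1G23030 differed by -0.53 ± 0.17 (SE) and cleared the nearest array by 0.0084, and AT1G23040 differed by -1.07 ± 0.22 (SE) and cleared it by 0.027. AT1G23050, the next member, had the opposite sign, at 1.13 ± 0.22 (SE). It was singled out after its values were seen, and its NILDOG3 arrays overlapped those of Ler through Ler replicate 2 at 7.83.

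AT1G23780 was at 8.77, 9.34, 8.74, 8.76 and 8.93 in Ler and at 7.25, 7.48 and 7.49 in NILDOG3, a difference of -1.5 ± 0.14 (SE). Its other arrays lay at 8.74 or above, and the gap was 1.25. AT1G22430 was at 6.59, 7.23, 6.87, 6.38 and 6.79 in Ler and at 5.39, 5.53 and 5.17 in NILDOG3, a difference of -1.41 ± 0.15 (SE). Among the lines this gene was lowest in NILDOG3 and highest in NILDOG6, where the arrays were at 7.27, 7.74 and 7.5. AT1G21670 was at 6.53, 6.86, 6.84, 6.59 and 7.20 in Ler and at 5.75, 5.78 and 5.45 in NILDOG3, with a difference of -1.14 ± 0.25 (SE).

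A list of 10 members held glycosyltransferases and related enzymes, proteins that attach sugars to small molecules or to cell wall polymers. Of these 10, 0 were higher and 2 were lower than all Ler arrays in NILDOG3, where 11% of all genes and 19.2% of the members did not overlap Ler. This background holds for each list below, and no list was tested against it. The median difference was -0.14, beside 0.01 over all genes. Both that were lower are glucosyltransferases, UGT74B1 of glucosinolate synthesis and UGT85A2. UGT74B1 (AT1G24100) was at 7.68, 6.57, 7.24, 7.23 and 6.82 in Ler and at 5.76, 5.43 and 5.53 in NILDOG3, a difference of -1.54 ± 0.26 (SE). This gene was also low in NILDOG6 (-0.89, or -1.16 without its replicate 1) and NILDOG1 (-0.73), and its NILDOG3 arrays overlapped those of NILDOG6.

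UGT85A2 (AT1G22360) was at 5.52, 4.87, 5.26, 5.30 and 5.11 in Ler and at 3.61, 3.99 and 4.06 in NILDOG3, a difference of -1.33 ± 0.18 (SE). In NILDOG2 it lay at 5.62, 5.95 and 5.62, above every array of the other genotypes. UGT85A5 had the same order of means at both ends, at 0.61 in NILDOG2 and -0.86 ± 0.39 (SE) in NILDOG3, but its NILDOG3 arrays overlapped those of Ler. The other genes of the family differed less in NILDOG3, UGT85A3 by -0.32, UGT85A7 by -0.01 and UGT85A1 by 0.18. The members of this cluster are close copies, and a probe that reads several of them was not examined.

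The remaining named falls were AT1G22890 at -1.10 ± 0.35 (SE), AT1G23000 at -1.06 ± 0.29 (SE), and AT1G24360 described above. NILDOG3 arrays of the first pair were below those of Ler. AT1G22890, at 4.02, 3.77 and 3.40 in NILDOG3, overlapped the lowest array of the other lines at 3.82, and AT1G23000, at 4.32, 4.15 and 3.69, overlapped theirs at 3.96. In the other lines AT1G23000 differed from Ler by -0.82 (NILDOG1), -0.08 (NILDOG2) and -0.41 (NILDOG6). The 19 outside members were spread along the segment, with a median spacing of 6.5 members and a largest gap of 42. The outside member with the smallest difference was AT1G23840, at 0.44, which is mentioned for that reason after its value was seen.

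Transcription factors and chromatin regulators made up 14 members, 11 of them with a symbol. In NILDOG3, 2 were higher than all Ler arrays, 1 was lower and 11 overlapped, beside 11% not overlapping over all genes, and the median difference was 0.09. The lower one was KNAT6 (AT1G23380), a homeobox factor of meristem and organ boundaries. It was at 6.43, 6.46, 6.38, 6.55 and 6.40 in Ler and at 5.64, 5.53 and 5.39 in NILDOG3, a difference of -0.92 ± 0.12 (SE). By its array values KNAT6 was highest in NILDOG2, at 7.20, 6.77 and 6.85, with limma's adjusted p = 0.129 against Ler. NILDOG1 lay between NILDOG3 and Ler at 5.91 to 6.3, and NILDOG6 overlapped Ler at 6.33 to 6.70. The higher pair were AT1G23230 at 0.44 and SNL3, a SIN3-like component of histone deacetylase complexes, at 0.36. MYB3, a repressor of phenylpropanoid genes, had a value of -0.70 ± 0.16 (SE) with overlapping arrays.

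Of 7 members listed for the ubiquitin system, 1 was higher (ATL15), 1 lower (AT1G23030) and 5 overlapped Ler, beside 11% not overlapping over all genes, with a median of 0.01. CSN5A, the catalytic subunit of the COP9 signalosome, was among the overlapping ones at -0.28. Of 10 listed transporters, 0 were higher and 2 lower, beside the same 11%, with a median of -0.32. Those lower were SWEET1, a sugar transporter, at -0.48, and AST91, a sulfate transporter, at -0.44. PIN7, an auxin efflux carrier, overlapped Ler at -0.82 ± 0.28 (SE), and its differences in the other lines were -0.48 (NILDOG1), -0.19 (NILDOG2) and -0.71 (NILDOG6). SUC2, the sucrose carrier of the phloem, was at -0.30 in NILDOG3 and at -0.74 in NILDOG6 (-0.98 without its replicate 1).

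A list of 6 members that holds AT1G23120 and MLP423 had 2 higher and 4 overlapping, beside 11% not overlapping over all genes, MLP423 at 0.29. The other 4 of this list were close to the bottom of the scale, from 2.36 to 2.99 in Ler, and in NILDOG3 none of them differed by more than 0.20. All 6 members of a list of hormone genes overlapped Ler, a count near the 11% background. Among them were TAR1, of auxin synthesis, at 0.19 and CRF7, a cytokinin response factor, at 0.43. This list also held PIN7, counted above with the transporters, and PAPP2C, a phytochrome phosphatase and not a hormone gene, at 0.13.

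**Figure D3:**
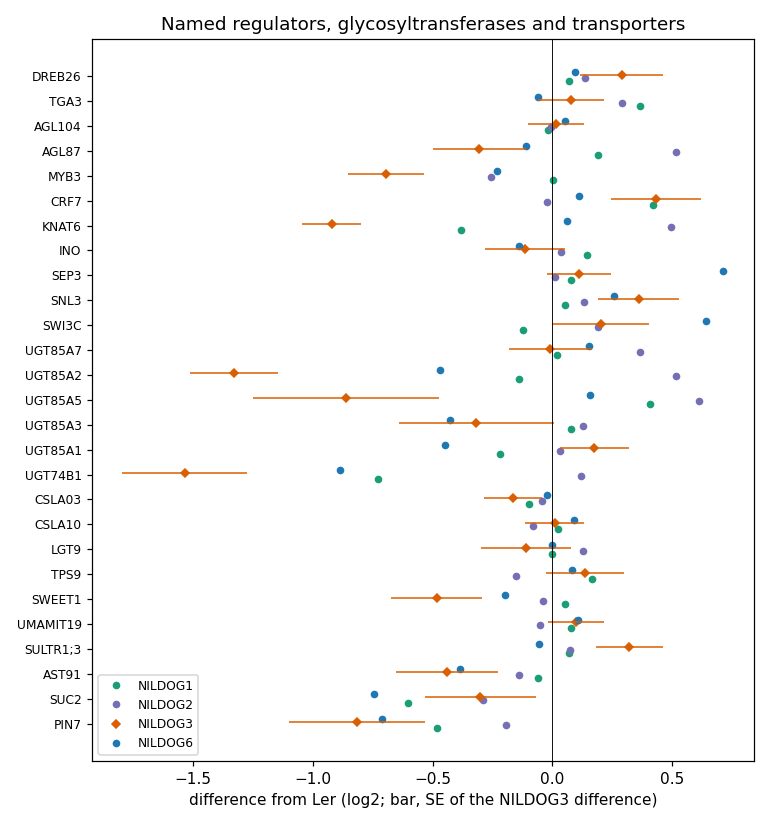
Log2 difference from Ler of the named regulators, glycosyltransferases and transporters in each line (points), with the SE of the NILDOG3 difference as a bar. UGT74B1, UGT85A2 and KNAT6 have the lowest NILDOG3 values, at -1.54, -1.33 and -0.92, and SEP3 the highest NILDOG6 value, at 0.72.

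The array signal of the members in Ler ran from 2.3 to 11.22, with a median of 4.81, where all genes ran from 2.11 to 14.38 with a median of 4.80. Signals of different genes come from different probes and do not rank the genes by amount of transcript. The members with the highest signal in Ler, named by rule, were CYTC-1, which encodes cytochrome c of the respiratory chain, at 11.22 ± 0.19 (SD, n = 5), GRF10, a 14-3-3 protein, at 11.16 ± 0.14 (SD, n = 5), AT1G21770 and AT1G24050, both at 10.09, and AT1G23070 at 10.02. In NILDOG3 these 5 differed from Ler by between -0.37 and 0.35. With all genes split into 3 equal classes by their Ler signal, 90 members were in the lowest class, 74 in the middle and 76 in the highest. Outside members numbered 3, 9 and 7 in these classes, or 3.33%, 12.2% and 9.21%, where 0.239%, 1.1% and 1.6% of all genes in the same classes were outside. Those in the lowest class, which lies near the floor of the signal, were all higher in NILDOG3, and 6 of the 7 in the highest class were lower. The shares of outside members in the classes also rest on the values that set the bounds. The median SD between replicates of the members was 0.21 in Ler and 0.16 in NILDOG3, the same as over all genes.

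**Figure D4:**
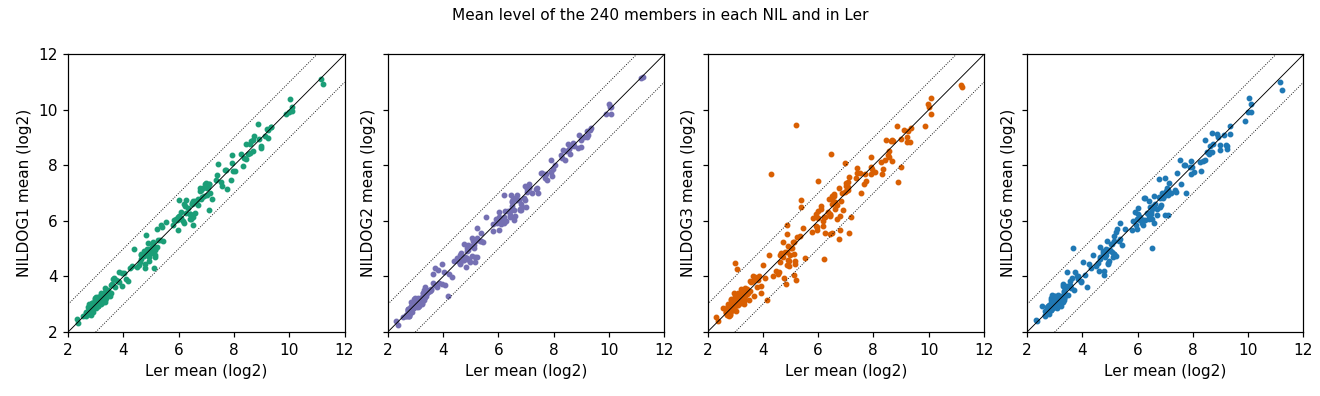
Mean log2 level of the 240 members in each line against that in Ler, with a solid line at equal levels and dotted lines at a difference of 1. NILDOG3 has 20 members beyond the dotted lines, NILDOG6 has 2, and NILDOG1 and NILDOG2 have 0.

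The same genes were then examined in the other lines, where the bounds had not used the values of the line although the Ler arrays were the same. At an adjusted p under 1e-04 (limma), 0 members were called in NILDOG1, where 0.103% of all genes were, 0 in NILDOG2, where 0.0657% were, and 0 in NILDOG6, where 0% were. At an unadjusted p under 0.05 there were 33 members in NILDOG1, where 10.9% of all genes passed, 20 in NILDOG2, where 6.78% did, and 48 in NILDOG6, where 18.8% did. Without NILDOG6 replicate 1 there were 58 in that line, where 24.3% did. Median absolute differences were 0.14 in NILDOG1 (0.11 over all genes), 0.12 in NILDOG2 (0.11) and 0.16 in NILDOG6 (0.16). Without NILDOG6 replicate 1 the last value was 0.22. The median over all genes was not taken without this array, so 0.22 has no background beside it.

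Arrays of NILDOG1 did not overlap those of Ler for 5 members, where 2.14% of all genes did not. In NILDOG2 this held for 12 members, where 5.41% of all genes did not overlap, and in NILDOG6 for 19, where 8.09% did not. Without NILDOG6 replicate 1 it held for 58, where 23.6% did not. Outside all other arrays were 0 members in NILDOG1, where 0.394% of all genes were, 2 in NILDOG2, where 1.04% were, and 4 in NILDOG6, where 1.5% were. Without NILDOG6 replicate 1 this last count was 17, where 6.96% of all genes were outside. Leaving out 1 array gave up to 2 in NILDOG1 (without its replicate 4, where 0.596% of all genes were) and up to 5 in NILDOG2 (without its replicate 1, where 2.74% were). The outside pair of NILDOG2 were UGT85A2 at 0.52 and KNAT6 at 0.50, both of which were outside on the lower side in NILDOG3. The outside members of NILDOG6 were AT1G22430 at 0.73, SEP3 at 0.72, PTAC6, a component of plastid transcription complexes, at 0.32, and AT1G22490 at 0.24.

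At the looser threshold of an adjusted p under 0.05, 1 member was called in NILDOG1, where 1.17% of all genes were, and 0 in NILDOG2, where 0.305% were. The call of NILDOG1 was EMB2421, at 6.94, 7.04, 6.58, 6.75 and 6.39 against 5.65 to 6.61 in Ler. Its difference was 0.73 ± 0.15 (SE), with limma's adjusted p = 0.0204, and the arrays overlapped. Over 28 alternative settings the adjusted p ranged from 0.00137 to 0.168 and was under 0.05 in 21.

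In NILDOG6, 7 members were called at this threshold, 4 higher and 3 lower, where 2.36% of all genes were. Without replicate 1 the count was 23, where 8.39% of all genes were, and 0 at an adjusted p under 1e-04, where 0.0985% were. SEP3 (AT1G24260), a MADS factor of floral organs, was at 3.39, 3.74, 3.44, 3.14 and 3.52 in Ler and at 4.28, 3.98 and 4.22 in NILDOG6, above every other array. Its difference was 0.72, with limma's adjusted p = 0.0115, and 0.65 without replicate 1 (0.0133). The levels of SEP3 were low in every genotype, and the other lines lay at 3.23 to 3.73.

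AT1G22430 was higher in NILDOG6 by 0.73 (limma's adjusted p = 0.0216), and by 0.84 without replicate 1 (0.00553). AT1G23720 rose by 1.38 (0.0387 by limma) and by 1.92 without replicate 1 (0.00117). AT1G24290 rose by 0.59 (0.0410 by limma), and its value without replicate 1 was 0.43 (0.0929), which does not pass. TH1, an enzyme of thiamine synthesis, fell by 0.77 (0.0224 by limma) and by 0.78 without replicate 1 (0.0181). Its Ler arrays were at 7.02, 7.28 and 7.41 in replicates 1 to 3 and at 6.73 and 6.58 in replicates 4 and 5. With Ler replicates 4 and 5 only, limma's adjusted p for TH1 was 0.195. AT1G23410 fell by 1.5 (0.0191 by limma) and by 1.92 without NILDOG6 replicate 1 (0.000946). AT1G23750 fell by 0.67 (0.0344 by limma) and by 0.74 without that array (0.0169). All 28 settings kept the sign of these 7 calls. The adjusted p was under 0.05 in 25 of them for SEP3, 24 for AT1G23410, 22 for AT1G22430 and TH1, 20 for AT1G23720, 16 for AT1G23750 and only 10 for AT1G24290, and its highest value lay between 0.137 and 0.235. For AT1G22430, KNAT6 and UGT85A2 the sides were opposed between lines. AT1G22430 was outside below in NILDOG3 and outside above in NILDOG6. KNAT6 and UGT85A2 were outside below in NILDOG3 and outside above in NILDOG2, where limma's adjusted p against Ler was 0.129 and 0.489.

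The surroundings of the segment were compared with it by the same counts in NILDOG3. Among the 240 measured genes before AT1G21450, 2 were outside, 6 differed by more than 1 and the median absolute difference was 0.15. Among the 240 after AT1G24360, 18 were outside, 13 differed by more than 1, 4 of them higher and 9 lower, and the median was 0.22. The members themselves had 19 outside, 20 over 1 and a median of 0.20. The outside count and the median were thus lower before the first member, whereas those after the last member were close to the members' own. These NILDOG3 values are those that set the bounds, so the step at the first member is no separate result. The next outside gene after the segment was AT1G26260, at -1.06, so the 71 measured genes before it held 0 outside by construction. Of these 71, 0 differed by more than 1, and 8 did not overlap Ler, where 11% of all genes did not. Their median absolute difference was 0.22.

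In windows of 40 measured genes, the segment held 1 to 5 outside genes in NILDOG3. Of 209 outside genes of NILDOG3 in the whole table, 82 were higher and 127 lower. Of these 209, 91 were on chromosome 1, 9 before the segment, 19 among the members and 63 after it, and 118 were on other chromosomes. The members hence held 9.09% of the outside genes, by values that had also set the bounds.

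**Figure D5:**
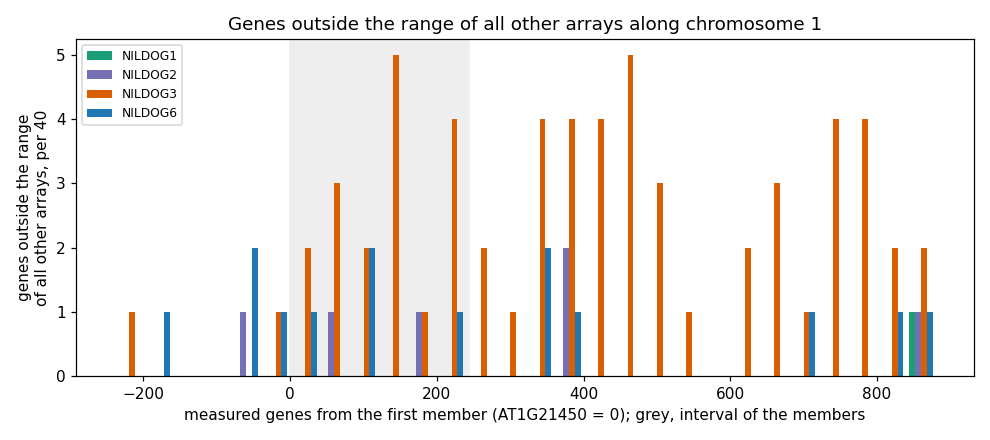
Number of genes per window of 40 measured genes whose arrays in a line were all above or all below every other array (vertical axis), along chromosome 1 in gene order from the first member (horizontal axis), with the interval of the members in grey. NILDOG3 has 1 to 5 such genes in each window within the grey area, and windows with up to 5 are also found after it.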

How the data were processed

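The authors hybridized RNA of whole seeds to ATH1 arrays and deposited log2 expression values after RMA, 1 row per AGI code and 1 column per array, for 19 arrays of 5 genotypes. The genome build and the annotation behind the rows are not given in the sources used here, so gene order was used without coordinates. Genotypes came from the labels. Genotype means were fitted to all 21313 genes over all 19 arrays with limma 3.58.1 in R 4.3.3 (lmFit, eBayes), and p-values were adjusted by Benjamini-Hochberg over all genes. Calls used an adjusted p under 1e-04, the study's threshold, and 0.05. p-values rest on the spread between bulks of plants within a genotype, pooled over the 5 genotypes and moderated by eBayes. Each genotype was 1 line. The number of arrays limits the precision.

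Named genes were members called in NILDOG3, the 10 largest rises and 10 largest falls among members whose NILDOG3 and Ler arrays did not overlap, the members at the bounds with their neighbours, the 5 highest in Ler and members of the role lists. Other genes called or outside in another line are named as small counts. Members and lists were chosen with earlier results of these data known. Alternatives were other thresholds, a filter on low values, centring, quantile normalization, another prior, array weights, subsets of arrays, a replicate block and leaving out each array. Promoter and protein sequences were not used here.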

Additional observations from a re-analysis of the deposited data

Results flagged for a closer look

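Among 50 groups of 5 arrays, Ler and NILDOG1 over the 25 members named by rule, 2 held an array far from the rest of its group. Chance flags about 1 in 20 groups, which would be 2.5 here. UGT85A2 (AT1G22360) was at 4.52 in NILDOG1 replicate 1, whereas the other replicates of that line lay between 5.16 and 5.26. AT1G24360 was at 8.66 in Ler replicate 2, below the other Ler arrays at 9.02 to 9.15.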

How the results depend on the processing

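Of the members called in NILDOG3, 6 at an adjusted p under 1e-04, the count was 15 at 0.01, 23 at 0.05, 12 with array weights, 3 when the line and Ler were fitted alone, 3 with replicates 1 to 3 only and 0 with Ler replicates 4 and 5 only. No share over all genes was taken for the alternative counts of NILDOG3 calls, here and below, so they have no background beside them. At 0.05 there was 1 call in NILDOG1 and 7 in NILDOG6. Outside members of NILDOG2 numbered 1 after quantile normalization against 2 as deposited. Centring each array on its median moved the median difference of all genes in NILDOG3 from 0.01 to 0.14, and the members' median absolute difference from 0.20 to 0.23. Whether the replicate numbers pair the samples is not known, as differently numbered arrays were not compared. Same-numbered arrays of NILDOG3 and Ler had deviations that correlated at 0.11, 0.25 and -0.0030. In the other lines these correlations ranged from -0.30 (NILDOG2, replicate 2) to 0.37 (NILDOG6, replicate 1). With the replicate block 4 members were called in NILDOG3 and 0 in each other line. Leaving out 1 array gave 3 to 8 calls in NILDOG3 (3 without NILDOG3 replicate 2 or 3, 8 without Ler replicate 2) and 0 to 0 in the other lines. Median absolute differences then ranged from 0.12 to 0.16 in NILDOG1, 0.11 to 0.14 in NILDOG2, 0.19 to 0.23 in NILDOG3 and 0.15 to 0.22 in NILDOG6, the last highest without NILDOG6 replicate 1. Outside members ranged from 0 to 2, 2 to 5, 19 to 28 and 4 to 17 in the same order. Members of NILDOG3 that did not overlap Ler ranged from 46 to 72. No share over all genes was taken for the 28 in NILDOG3, and those for the other upper ends are given above. The 20 named differences in NILDOG3 were chosen for arrays that do not overlap Ler, so leaving out arrays could not reverse their direction. All 558 alternative values kept it, 0 changed by over 1.5 times, and 10 moved by a replicate SD or more. Settings added after seeing the data were those for outside and non-overlapping members. The search of promoters for motifs was not run. The cause of these changes was not tested.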
